A study of Homo sapiens with 6 samples.

Results

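MYC, the long noncoding RNA PVT1 and 8 genes of the MAX network (MAX, MXD1, MXD3, MXD4, MXI1, MNT, MLX and MGA) were followed after knockdown of Matrin3 (the product of MATR3, which binds RNA in the nucleus) in HCT116, a human cell line established from a colorectal cancer. The 10 genes were chosen by name, as the rows of the deposited tables whose Ensembl identifier carries these symbols, out of 56632 genes in the tables, and all 10 passed the filter on low counts that left 16786 genes for testing. Poly(A) RNA was sequenced from 3 siMatrin3 libraries, transfected with a pool of siRNAs against Matrin3, and from 3 siCTRL libraries, transfected with an unrelated negative control siRNA. All cells were transfected in 2 rounds, for which the labels give 72 and 48 hours, while the study's methods have the cells reseeded after the second interval and the RNA purified later. Effects of the siRNA pool on transcripts other than MATR3 were not tested. The study calls the libraries biological triplicates, all come from 1 cell line, and the p-values measure the spread between libraries of a group.

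MYC is a transcription factor that drives growth and division, and in colorectal cancer its transcription is raised through the WNT pathway. It binds DNA at the E-box only as a pair with MAX. MAX also pairs with the MXD proteins and MNT, which recruit SIN3 corepressors and occupy E-boxes in place of MYC, and with MGA, a very large protein found in a noncanonical Polycomb complex. MLX stands beside MAX as a second hub that pairs with the glucose-responsive factors MondoA and ChREBP, with MNT and with some MXD proteins. PVT1 is transcribed from the gene next to MYC on the same strand and is often gained together with it in tumors.

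The expected counts (estimated read counts per gene) summed to between 40808173 and 54185650 per library. MATR3 stood at 95.2, 112 and 111 TPM (a transcript level corrected for length and library size) in siMatrin3 and at 186, 180 and 176 TPM in siCTRL. On counts, edgeR gave a log2 fold change of -0.93 (adjusted p = 7.67e-05), so the message was lowered but not lost. The fall was smaller where transcript length entered, at -0.77 with limma on log2(TPM + 1) and -0.76 with a transcript length offset. The epithelial markers EPCAM, KRT8, KRT18, KRT19, CDH1 and CLDN7 summed to 2964 to 3174 TPM in siMatrin3 and 3198 to 3355 TPM in siCTRL, and 1 of the 6, KRT18, fell (edgeR adjusted p = 0.033, log2 fold change -0.15), a call lost in 9 of 17 alternatives. Markers of other cell types summed to 32.6 to 38.8 TPM in siMatrin3 and 32.4 to 38.4 TPM in siCTRL over 11 genes, mostly CD68, COL1A1 and DES, with PTPRC and COL1A2 at 0 in every library. In edgeR 0 of the 6 tested of these markers changed, with 0 at an unadjusted p under 0.05, and DESeq2 and limma also called 0.

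Of the 10 network genes, 4 changed by edgeR's quasi-likelihood test (Benjamini-Hochberg adjusted p under 0.05 over all genes tested): MYC, PVT1 and MNT rose and MXI1 fell. Over all genes tested, 11.0% changed, 5.05% higher and 5.97% lower in siMatrin3. With upper quartile scaling the split over all genes moved to 636 higher and 1146 lower, against 847 and 1002 with the scaling used here, and MNT was no longer called. Taken without sign, the log2 fold changes of the network genes had a median of 0.13, against 0.11 over all genes tested. In counts scaled by library size (CPM) the libraries of the groups did not overlap for 7 of the 10 genes, 5 higher and 2 lower, where this held for 31.0% of all genes tested. MYC and PVT1 were called in every alternative tried, while MXI1 and MNT each lost the call in most of them.

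**Figure D1:**
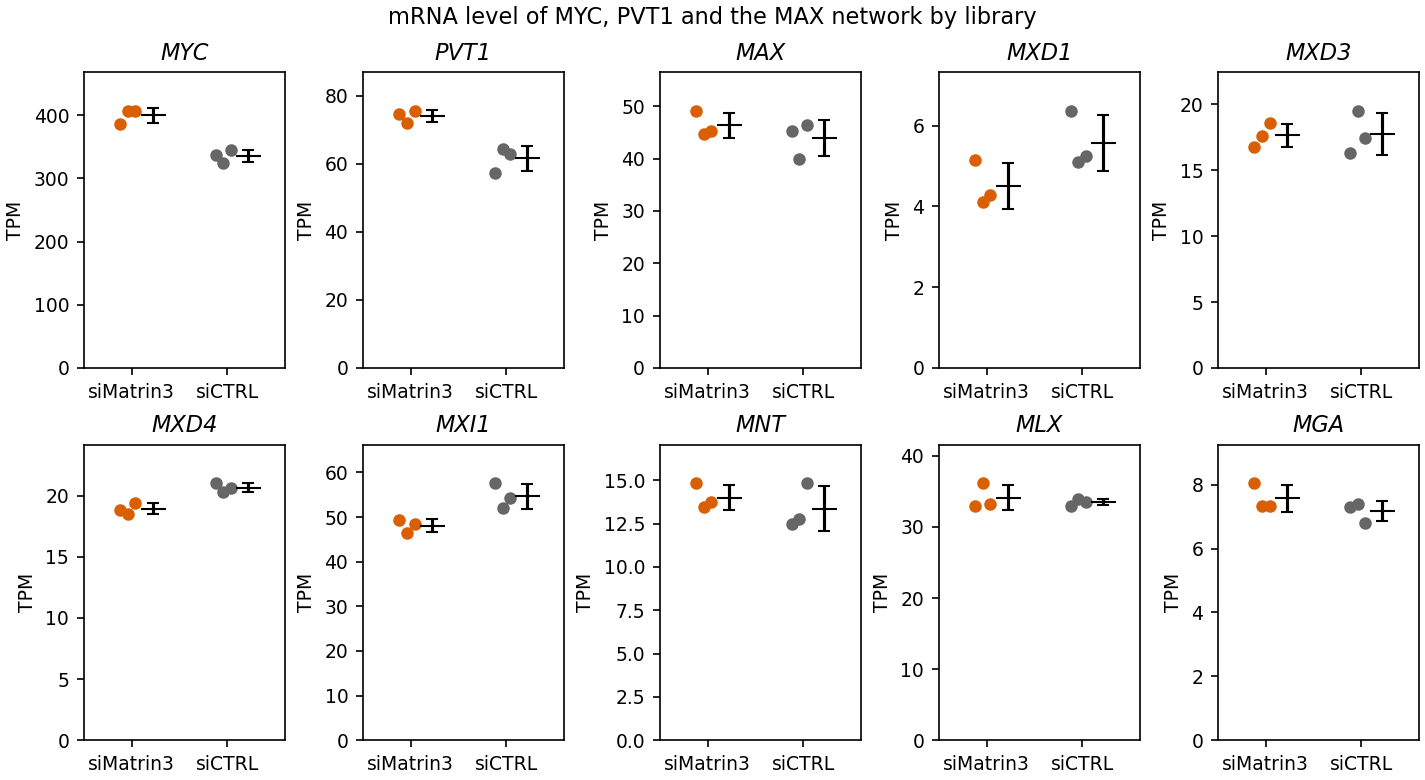
TPM of each network gene, where a point is a library, the bar beside the points is the mean with 1 SD of 3 libraries, orange is siMatrin3 and grey is siCTRL, and each axis starts at 0. MYC and PVT1 are higher and MXI1 and MXD4 lower in all 3 siMatrin3 libraries, and the groups overlap for the other 6 genes on this scale.

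MYC (ENSG00000136997) had 385, 407 and 407 TPM in siMatrin3 libraries, against 337, 324 and 344 TPM in siCTRL libraries. The lowest siMatrin3 library thus lay above the highest siCTRL library. MYC averaged 399.7 ± 12.4 TPM in siMatrin3 and 335 ± 10.1 TPM in siCTRL (SD, n = 3 each), and the edgeR log2 fold change was 0.27 (SE 0.040, 95% interval 0.19 to 0.36, edgeR adjusted p = 0.00271), a rise of 20.8%. MYC was already abundant, ranking 227 by mean TPM among the 56632 genes, and its libraries held 22293 to 35237 expected counts. Of the 332 tested genes with a mean TPM within 2-fold of MYC, 2.41% had a fold change at least as large in either direction, against 19.2% of all genes tested.

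PVT1 (ENSG00000249859) had 74.6, 72.1 and 75.6 TPM in siMatrin3 libraries, against 57.5, 64.4 and 62.9 TPM in siCTRL libraries, and the groups again did not overlap. It averaged 74.1 ± 1.79 TPM in siMatrin3 and 61.6 ± 3.67 TPM in siCTRL (SD, n = 3 each). The log2 fold change was 0.27 (SE 0.044, 95% interval 0.17 to 0.37, edgeR adjusted p = 0.00487), a rise of 20.5%. The point estimates of PVT1 and MYC therefore lay within each other's intervals, and the TPM of PVT1 was 19.4%, 17.7% and 18.6% of that of MYC in siMatrin3 libraries, against 17.0%, 19.9% and 18.3% in siCTRL libraries. These ratios overlapped between the groups. Leaving out each library in turn gave log2 fold changes of 0.24 to 0.30 for MYC and 0.23 to 0.29 for PVT1, all called. MYC shares exon sequence on the opposite strand with CASC11, which stood at or under 0.22 TPM in all 6 libraries, and PVT1 shares exon sequence with small RNA genes on its own strand. In bulk RNA, more cells of a kind and more RNA per cell cannot be told apart.

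Genes near MYC and PVT1 on 8q24 were examined as a list of 19, of which 13 had a match in the tables and 9 were tested. TRIB1, a pseudokinase scaffold for the COP1 ubiquitin ligase that lies on the centromere side of MYC, was the only gene of the list past the threshold. It had 165, 166 and 173 TPM in siMatrin3 libraries, against 145, 129 and 137 TPM in siCTRL libraries (edgeR adjusted p = 0.00399, log2 fold change 0.31, SE 0.048), with no overlap, and kept its call in every alternative. CASC19, a noncoding RNA of the same region, had 1.76, 2.26 and 1.6 TPM in siMatrin3 and 0.92, 0.31 and 0.95 TPM in siCTRL, and did not pass (edgeR adjusted p = 0.0739, log2 fold change 1.32, SE 0.425). The other 7 tested genes had log2 fold changes of -0.11 to 0.18, among them SQLE at 0.08, ASAP1 at 0.09, CYRIB at 0.03 and NSMCE2 at -0.01. The median of the list was 0.08, and 11.1% of its tested genes were called, against 11.0% of all genes. No match in the tables was found for CASC21, CCAT1, CCAT2, PCAT2, PRNCR1 and TMEM75.

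MAX (ENSG00000125952), the partner shared by MYC and its antagonists, had 49.1, 44.6 and 45.3 TPM in siMatrin3 and 45.3, 39.95 and 46.5 TPM in siCTRL. The groups overlapped in TPM, while CPM separated them narrowly, at 45.2, 45.6 and 43.96 in siMatrin3 and 43.1, 42.5 and 43.2 in siCTRL. MAX did not pass the test (edgeR adjusted p = 0.293, log2 fold change 0.06, 95% interval -0.01 to 0.14). MYC TPM was 7.85, 9.11 and 8.97 times that of MAX in siMatrin3 libraries, against 7.45, 8.12 and 7.41 times in siCTRL libraries, and the groups overlapped because siMatrin3 replicate 1 lay below siCTRL replicate 2.

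Among the antagonists, MXI1 (ENSG00000119950), an MXD family repressor that competes with MYC for MAX, had 49.3, 46.5 and 48.5 TPM in siMatrin3 libraries, against 57.6, 52.0 and 54.3 TPM in siCTRL libraries. No siMatrin3 library reached the lowest siCTRL library. The fall was 10.5% (edgeR adjusted p = 0.0491, log2 fold change -0.16, SE 0.046, 95% interval -0.26 to -0.06) and lay just past the threshold. The call was lost in 10 of 17 alternatives, with adjusted p over the fits of 0.0196 to 0.170, among them leaving out any 1 library other than siCTRL replicate 2, where the adjusted p reached 0.170, and the direction held in each.

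MNT (ENSG00000070444), a broadly expressed MAX partner that represses MYC targets, had 46.0, 46.6 and 47.5 CPM in siMatrin3 libraries, against 42.1, 40.2 and 43.9 CPM in siCTRL libraries. On this scale the groups did not overlap, with a log2 fold change of 0.15 (SE 0.042, 95% interval 0.06 to 0.24, edgeR adjusted p = 0.0454). In TPM they did overlap, at 14.8, 13.4 and 13.8 in siMatrin3 and 12.5, 12.8 and 14.8 in siCTRL. The difference between the scales comes with the transcript length that the authors' RSEM assigned to MNT, which was 3906, 4394 and 4372 bases in siMatrin3 and 4297, 4078 and 3806 bases in siCTRL. The call was lost in 13 of 17 alternatives, with adjusted p over the fits of 0.0206 to 0.687, including each of the 6 fits without 1 library, the fit with a transcript length offset and DESeq2.

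The other 3 MXD genes did not pass. MXD4 (ENSG00000123933) had 18.8, 18.5 and 19.4 TPM in siMatrin3 libraries, against 21.0, 20.3 and 20.6 TPM in siCTRL libraries, with no overlap between the groups (edgeR adjusted p = 0.115, log2 fold change -0.11, 95% interval -0.21 to -0.02). MXD1 (ENSG00000059728), known from differentiating cells and the least abundant member, had 5.15, 4.1 and 4.28 TPM in siMatrin3 and 6.37, 5.09 and 5.26 TPM in siCTRL, where siMatrin3 replicate 1 lay within the siCTRL range (edgeR adjusted p = 0.175, log2 fold change -0.16, 95% interval -0.32 to -0.01). MXD3 (ENSG00000213347), reported in proliferating cells, had 16.8, 17.6 and 18.6 TPM in siMatrin3 and 16.3, 19.5 and 17.5 TPM in siCTRL (edgeR adjusted p = 0.500, log2 fold change 0.09, 95% interval -0.07 to 0.25), and its sign turned with limma on TPM. MXD1 shares exons on its own strand with SNRNP27 and MXD3 with RAB24, so their reads are less certain.

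**Figure D2:**
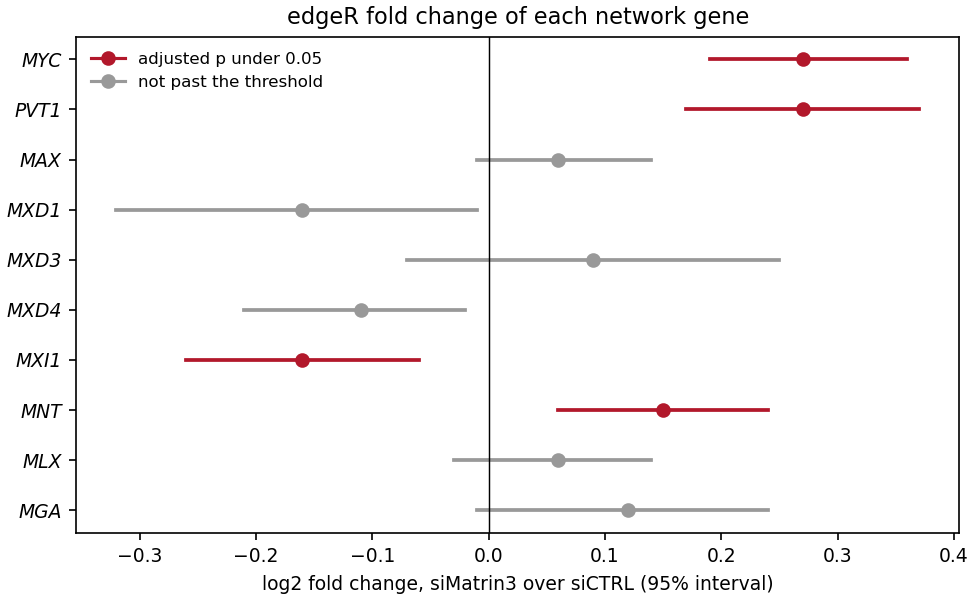
edgeR log2 fold change of each network gene, siMatrin3 over siCTRL, with its 95% interval; red marks genes with an adjusted p under 0.05 over all genes tested and grey the others. MYC and PVT1 stand together at 0.27, MNT is at 0.15, and MXI1 at -0.16 is the only member called lower.

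The TPM of the antagonists MXD1, MXD3, MXD4, MXI1 and MNT, added up, was 105, 100.1 and 105 in siMatrin3 libraries, against 114, 109.6 and 112 in siCTRL libraries. MXI1 was the largest part of that sum, at 46.4% to 47.0% in siMatrin3 and 47.4% to 50.6% in siCTRL. Against this sum MYC was 3.67, 4.06 and 3.89 times as high in siMatrin3 libraries and 2.97, 2.96 and 3.06 times as high in siCTRL libraries. The groups did not overlap for this ratio, which joins the rise of MYC with the lower sum, and it averaged 3.88 ± 0.195 in siMatrin3 and 2.996 ± 0.0577 in siCTRL (SD, n = 3 each). It is given as a description of mRNA levels, with no test, and does not measure protein.

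**Figure D3:**
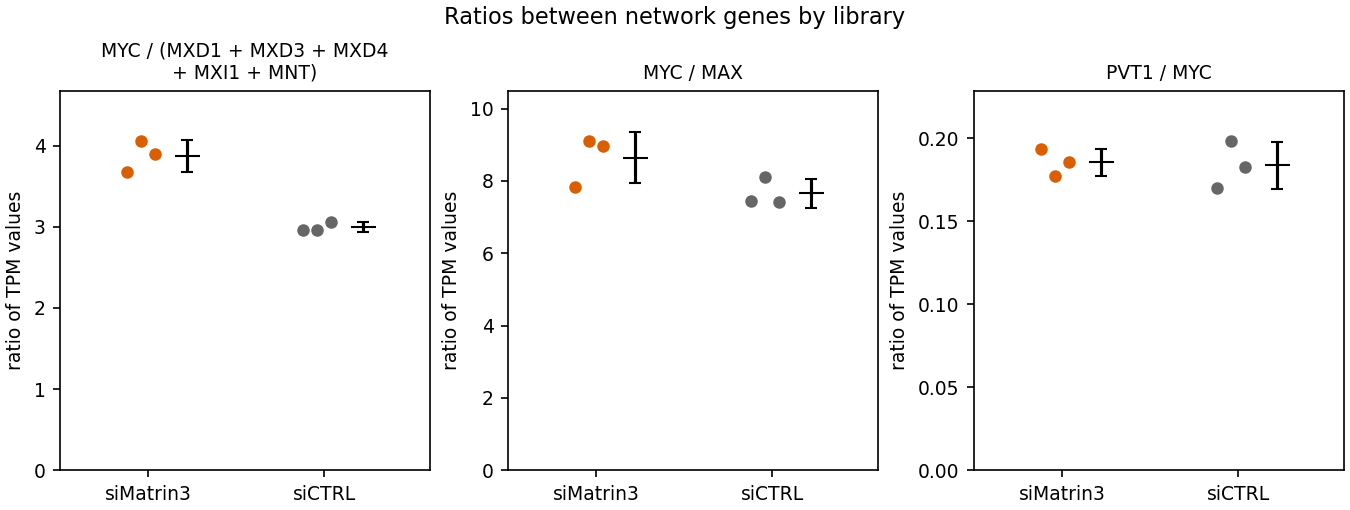
Ratios of TPM values within each library, where a point is a library, bars are the mean with 1 SD of 3 libraries, and axes start at 0. MYC over the summed antagonists is 3.67 to 4.06 in siMatrin3 and 2.96 to 3.06 in siCTRL, while MYC over MAX and PVT1 over MYC overlap between the groups.

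MLX (ENSG00000108788) had 32.9, 36.2 and 33.3 TPM in siMatrin3 and 33.0, 33.9 and 33.5 TPM in siCTRL, and did not pass (edgeR adjusted p = 0.416, log2 fold change 0.06, 95% interval -0.03 to 0.14). MGA (ENSG00000174197) had 8.05, 7.34 and 7.32 TPM in siMatrin3 and 7.29, 7.41 and 6.81 TPM in siCTRL (edgeR adjusted p = 0.214, log2 fold change 0.12, 95% interval -0.01 to 0.24). In both genes the groups overlapped in TPM. In CPM they overlapped for MGA but not for MLX, at 54.3, 57.6 and 54.4 in siMatrin3 and 53.0, 53.5 and 53.4 in siCTRL. The related factors that were tested also stayed under the threshold: MYCL had a log2 fold change of -0.02, the MondoA gene MLXIP of -0.01 and the ChREBP gene MLXIPL of 0.08, and MYCN was listed at 0 in every library. In this list edgeR called 0 genes, with 0 at an unadjusted p under 0.05, and DESeq2 and limma called 0.

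By level, MYC stood far above every other member in both groups. In siMatrin3 the order by mean TPM was MYC, PVT1, MXI1, MAX, MLX, MXD4, MXD3, MNT, MGA and MXD1, and the neighbours MXI1 and MAX (48.1 ± 1.48 and 46.4 ± 2.42 TPM) and MXD4 and MXD3 (18.9 ± 0.464 and 17.7 ± 0.881 TPM) overlapped in their libraries (SD, n = 3 each). The order was the same in siCTRL, where only PVT1 and MXI1 overlapped (61.6 ± 3.67 and 54.6 ± 2.84 TPM). The members spanned 4.51 ± 0.562 TPM for MXD1 to 399.7 ± 12.4 TPM for MYC in siMatrin3, and 5.57 ± 0.695 to 335 ± 10.1 TPM in siCTRL.

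Whether the estimated mix of transcripts shifted was asked through the mean transcript length that RSEM weights by abundance, tested with limma. Of the 10 members 0 changed, with 1 at an unadjusted p under 0.05, MXD3, at 1424, 1478 and 1482 bases in siMatrin3 and 1413, 1394 and 1395 bases in siCTRL (log2 difference 0.06, limma adjusted p = 0.720). MYC length was 2239 to 2242 bases in siMatrin3 and 2234 to 2248 bases in siCTRL, and PVT1, with 20 annotated transcripts, 810 to 820 bases in siMatrin3 and 813 to 839 bases in siCTRL. Over all 12148 genes tested for length, 0.00823% were called, which was 1 gene, AK4 (named after its value was seen), at 3024 to 3114 bases in siMatrin3 and 4108 to 4185 bases in siCTRL. A length averaged over transcripts can miss a switch between transcripts of like length.

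The E-box that MYC-MAX, MXD-MAX and MNT-MAX pairs share was looked for in the promoters of the members, as the letters CACGTG, which read the same on both strands, in windows of 250 bases before to 50 bases after each gene start (RefSeq, GRCh38.p14). The search left out MYC and PVT1, for which no result is given, and covered the other 8 of the 10 members, matched by symbol. They had 13 windows among them, and 3 windows held the motif, those of MXD4, MNT and MLX, against 7.26% of all 35116 windows. The stretches around the motif are shown with the E-box in capitals, since it is the element that these proteins are known to bind. They lie at chr4:2262322-2262359 on the minus strand for MXD4, 238 bases before the start, at chr17:2401228-2401273 on the minus strand for MNT, 193 bases before the start, and at chr17:42567030-42567075 on the plus strand for MLX, 50 bases before the start.
MXD4: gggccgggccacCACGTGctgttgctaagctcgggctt
MNT: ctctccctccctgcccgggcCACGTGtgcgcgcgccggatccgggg
MLX: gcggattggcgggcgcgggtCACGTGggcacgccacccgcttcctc
Of these 3 genes MNT rose, a call lost in 13 of 17 alternatives, and MXD4 and MLX did not pass the test. A match in letters is not evidence of binding, and the windows of MAX, MXD1, MXD3, MXI1 and MGA hold no such letters.

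Genes that act on MYC or with it were examined as lists. Of 18 cofactors bound by MYC or by the MXD proteins, 2 rose and 0 fell (median log2 fold change 0.05), a share of 11.1% that is near the 11.0% of all genes tested. RUVBL1, an ATPase of the TIP60 and INO80 complexes, averaged 90.9 ± 0.911 TPM in siMatrin3 and 79.8 ± 0.433 TPM in siCTRL (SD, n = 3 each), at an edgeR adjusted p of 0.00644 and 0.22 on the log2 scale, and WDR5, a WD40 protein that docks MYC on chromatin, rose by 0.19 on the log2 scale (edgeR adjusted p = 0.0165), a call lost with the length offset, with limma on TPM, and without siCTRL replicate 3, siMatrin3 replicate 2 or siMatrin3 replicate 3. Of 11 PRC1.6 partners of MGA edgeR called 0, with 3 at an unadjusted p under 0.05 and 2 called by DESeq2. Over all 16786 genes tested DESeq2 called 1814. Of 21 genes of MYC protein turnover, USP36, a nucleolar deubiquitinase known to stabilize MYC, rose by 0.19 on the log2 scale (edgeR adjusted p = 0.0187), and PPP2R5A, the regulatory subunit of the phosphatase PP2A that favors MYC decay, fell by 0.15 (edgeR adjusted p = 0.0382). These were 9.52% of the turnover list, against 11.0% of all genes tested, and 9 of the 21 had an unadjusted edgeR p under 0.05. BTRC, a turnover gene just over that line at an unadjusted edgeR p of 0.0507, had an adjusted p of 0.194. The adjustment runs over all genes tested, so unadjusted values under 0.05 were common among them. Their share is not given, and the list counts at an unadjusted p cannot be read as an excess. PPP2R5A lost its call in 11 of 17 alternatives and USP36 in 5.

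Of 15 tested inputs to MYC transcription, 1 rose, FUBP1, a protein that binds single-stranded DNA upstream of MYC, at 0.15 on the log2 scale (edgeR adjusted p = 0.0375), and it lost the call in 12 of 17 alternatives. The share called was 6.67%, against 11.0% of all genes tested, and 4 of the 15 had an unadjusted edgeR p under 0.05. Of 13 proteins that bind MYC mRNA, edgeR called 0, with 2 at an unadjusted p under 0.05 and 1 called by DESeq2. The counts at an unadjusted p again have no share over all genes beside them. The medians of these lists were 0.02 and 0.03.

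Of 25 tested genes known as MYC-induced targets in metabolism, translation and the cell cycle, 8 rose and 0 fell, 32.0% against 11.0% of all genes (5.05% higher), with a median log2 fold change of 0.11 against -0.001 over all genes tested. TERT, the catalytic subunit of telomerase, had 3.68, 3.54 and 3.5 TPM in siMatrin3 libraries, against 1.43, 2.26 and 1.53 TPM in siCTRL libraries. The groups did not overlap, and TERT kept its call in every alternative (edgeR adjusted p = 0.000449, log2 fold change 0.94). CAD, the first enzyme of pyrimidine synthesis, rose by 0.20 on the log2 scale (edgeR adjusted p = 0.0114), and HSPD1, the mitochondrial chaperonin, by 0.16 (edgeR adjusted p = 0.0141), and each lost its call in 6 of 17 alternatives. CTPS1, which makes CTP, had a log2 fold change of 0.30 in counts (edgeR adjusted p = 0.00164), but its TPM overlapped between the groups, at 28.7 ± 0.873 in siMatrin3 and 28.9 ± 2.80 in siCTRL, and its sign turned with limma on TPM. Among the best known targets, ODC1 at 0.10, CDK4 at 0.11 and LDHA at 0.00 on the log2 scale did not pass. With limma on log2(TPM + 1) 1 of the 25 was called, 4 with the length offset and 10 with DESeq2. Over all 16786 genes tested the calls were 437, 706 and 1814 in that order, against 1849 in the main test. The lower list counts with limma and the offset thus came with fewer calls over all genes. This list and that of MYC-repressed genes were chosen with earlier results of these data known, so their shares are descriptions only.

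Of 12 MYC-repressed genes, 2 fell and 0 rose (median log2 fold change -0.13), a share of 16.7% in this short list, where 11.0% of all genes tested changed and 5.97% were lower. CDKN2B, the p15 inhibitor of CDK4 and CDK6, had 8.26, 9.22 and 9.04 TPM in siMatrin3 libraries, against 13.1, 14.6 and 12.5 TPM in siCTRL libraries (edgeR adjusted p = 0.000343, log2 fold change -0.51, SE 0.049). The groups did not overlap and the call held in every alternative. BTG1, an antiproliferative factor, had a log2 fold change of -0.26 (edgeR adjusted p = 0.0201), lost with limma on TPM and without siCTRL replicate 3, siMatrin3 replicate 2 or siMatrin3 replicate 3, where the adjusted p reached 0.0945. CDKN1A, the p21 inhibitor, had a log2 fold change of 0.00. Of 3 tested targets of MondoA or ChREBP with MLX, FASN, fatty acid synthase, rose (edgeR adjusted p = 0.0122, log2 fold change 0.26), a call lost with limma on TPM and with the transcript length offset, and HK2 and ARRDC4 had 0.21 and 0.06 and did not pass. With 3 genes, the share called (33.3%, against 11.0% of all genes tested) rests on FASN alone. TXNIP and ACACA had no match in the tables.

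**Figure D4:**
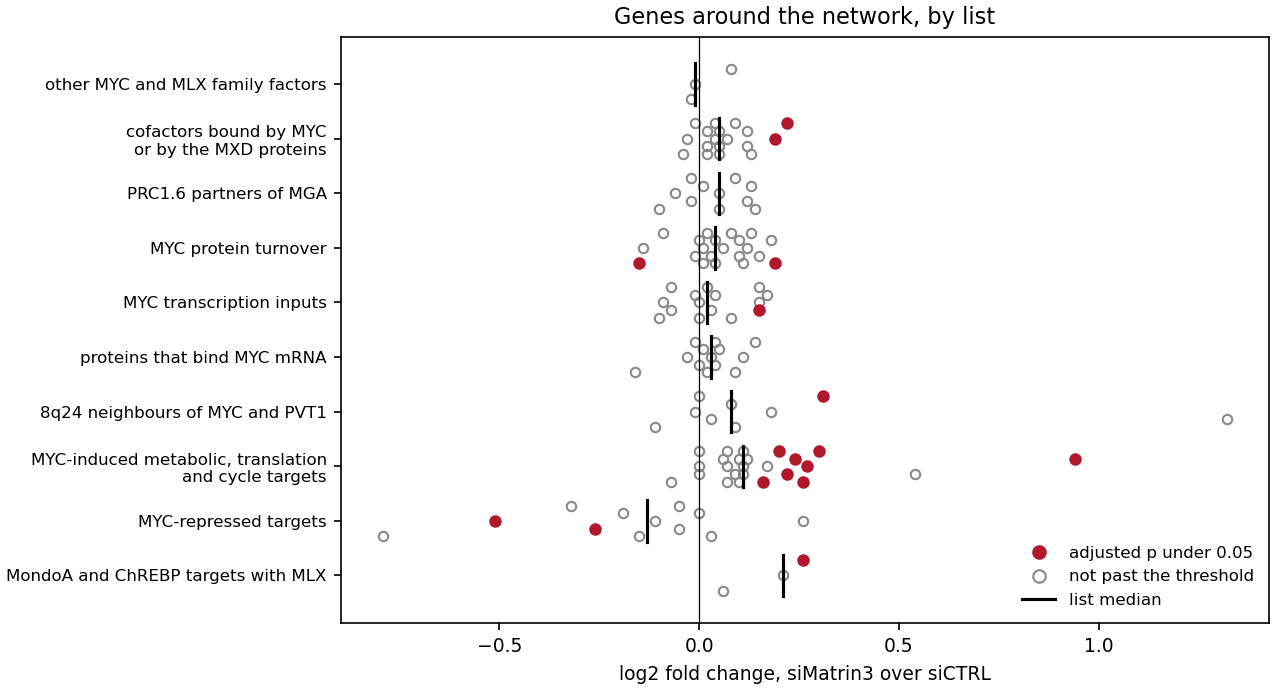
Log2 fold change, siMatrin3 over siCTRL, of every tested gene in 10 lists around the network, where each circle is a gene, red marks an adjusted p under 0.05, and the black line is the median of the list. Red genes lie to the right among MYC-induced targets, led by TERT at 0.94, and to the left among MYC-repressed targets, led by CDKN2B at -0.51. The lists were chosen with earlier results of these data known.

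Genes whose level across the 6 libraries was most like that of MYC, by Pearson correlation of log2 CPM over 5019 protein-coding genes with a mean of at least 20 TPM, were NCAPD3, a condensin II subunit, at 0.998, GPC1, a glypican, at 0.997 and TPM2, a tropomyosin, at 0.996. For PVT1 they were ITGA2, the collagen receptor integrin alpha 2, at 0.999, TNPO2, a nuclear import receptor, at 0.997 and DPH2, an enzyme of diphthamide synthesis, at 0.996. MYC and PVT1 themselves correlated at 0.883, so that PVT1 would rank 571 by likeness to MYC. The libraries fall into 2 groups, so each value takes in the difference between siMatrin3 and siCTRL, and they are given with no test. By edgeR, NCAPD3 (log2 fold change 0.12, adjusted p = 0.0881) and TNPO2 (0.11, adjusted p = 0.0848) were not called changed. GPC1, TPM2, ITGA2 and DPH2 were called higher.

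**Figure D5:**
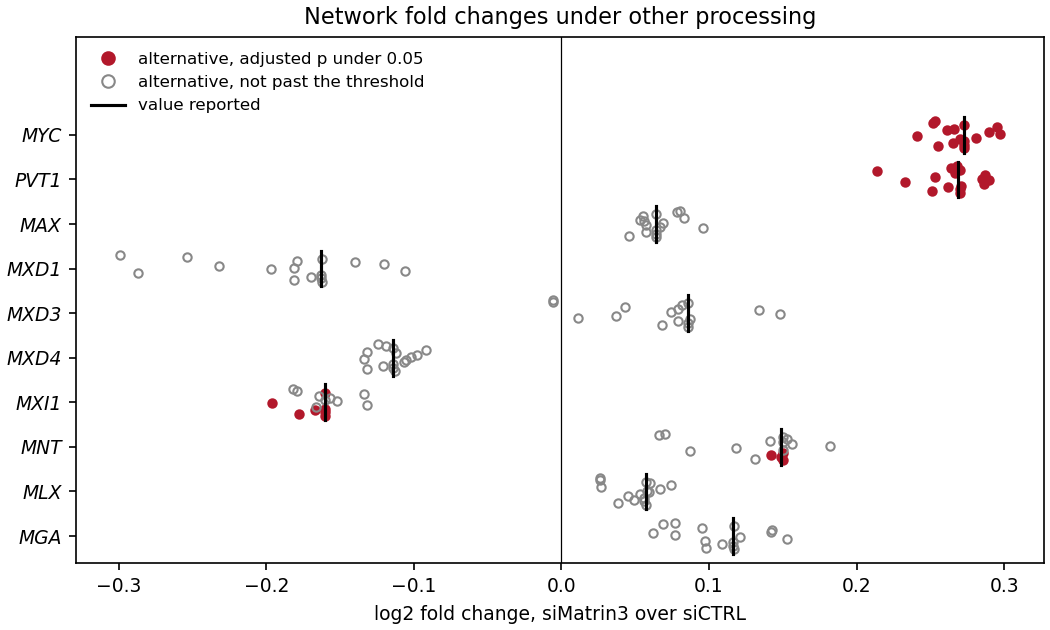
Log2 fold change of each network gene, siMatrin3 over siCTRL, under each other way of processing at the same threshold, where a red circle is an alternative with an adjusted p under 0.05, an open circle one without, and the black line the value reported. The points of MYC and PVT1 are all red, at 0.24 to 0.30 and 0.21 to 0.29, while those of MXI1 and MNT are mixed.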

How the data were processed

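Poly(A) RNA of 6 HCT116 libraries was grouped by the labels. Per the study's methods, libraries were made with a stranded, paired-end kit; the strand setting of the counting is not given in the sources used here. The submitters' processing notes name cutadapt, STAR 2.5.1, RSEM and hg19. The authors deposited expected counts (estimated counts in which RSEM divides shared reads among genes), TPM with an equal sum per library, FPKM scaled by length and depth (not used here), and other values, the lengths in bases.

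Names, biotypes and exon overlap came from GENCODE 44 on GRCh38; since the tables are on hg19, no gene coordinates are given, and promoter windows carry their own build. Of the gene identifiers 88.3% had a symbol, and 9 of 163 list entries had no match.

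After rounding, expected counts went through filterByExpr and TMM scaling. The main test was the two-sided quasi-likelihood test of edgeR 4.0.16 in R 4.3.3, without covariates, with Benjamini-Hochberg adjustment over 16786 genes and a threshold of 0.05. The common biological coefficient of variation was 5.98%. Weighted length was tested with limma 3.58.1 on log2 values in genes with at least 2 transcripts and 50 expected counts in every library. The study used DESeq2; DESeq2 1.42.0 was an alternative, beside RLE and upper quartile scaling, other filters, a replicate block, a length offset, limma on log2(TPM + 1) and log2(TPM + 0.1), a threshold of 0.01, other count minimums for length, and leaving out each library. Leaving out replicate 1 of both groups was added after seeing the data. Scripts were tested on simulated data, where edgeR called 80% of genes changed 2-fold and 53% of those changed 1.3-fold. The network changes were smaller, at most 1.21-fold (MYC), so genes that did not pass may still have changed.

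Named were the 10 members, MATR3, up to 4 called genes of each list by smallest p, any list member that a count of 5 or fewer rests on, and the 3 genes most like MYC and PVT1. Other genes named (CASC19, SQLE, ASAP1, CYRIB, NSMCE2, CASC11, MYCL, MLXIP, MLXIPL, MYCN, BTRC, ODC1, CDK4, LDHA, CDKN1A, HK2, ARRDC4 and AK4) were chosen after their values were seen. Members and lists were chosen with earlier results of these data known.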

Additional observations from a re-analysis of the deposited data

How the results depend on the processing

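MYC and PVT1 kept call and direction in all 17 alternatives, with log2 fold changes of 0.24 to 0.30 and 0.21 to 0.29, and so did TRIB1, TERT, CDKN2B and RUVBL1. The count of network genes called, 4, was 2 with the length offset, for limma at either pseudocount, at an adjusted p under 0.01 and without replicate 1 of both groups, and 2 to 3 without single libraries. With limma on TPM at either pseudocount MXD3 and CTPS1 turned sign, both to -0.006. The 17 list genes called became 9 with a length offset, 5 with limma on log2(TPM + 1) or log2(TPM + 0.1), 5 at an adjusted p under 0.01, and 6 to 19 without single libraries. Over all genes, 1849 calls became 706 with a length offset, 437 and 429 with limma at pseudocounts of 1 and 0.1, 561 at an adjusted p under 0.01, 1216 without replicate 1 of both groups and 759 to 1599 without single libraries, lowest without siMatrin3 replicate 3 (759), siCTRL replicate 3 (770) and siMatrin3 replicate 2 (1014). For weighted length the 1 call became 2 with a minimum of 20 counts and 0 to 5 without single libraries, and the members had 0 calls throughout. The cause of these shifts was not tested, except that fits without a library have fewer samples.

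Same-numbered libraries of the groups were not treated as pairs in the main test. Deviations from the group means correlated at 0.177, 0.090 and 0.000 for libraries of the same number, and at -0.145 to 0.064 for unlike numbers. Whether the libraries pair cannot be told from these values. With the replicate block, 27 list genes, 2716 genes in all and 4 network genes were called, and 0 genes for length, and not every library correlated best with its own number.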
